A study of Mus musculus with 2 samples.

Results

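The 6 mouse let-7 genes whose mature microRNA comes from a single annotated locus, Mirlet7b, Mirlet7d, Mirlet7e, Mirlet7g, Mirlet7i and Mir98, were described in the young heart. They were taken by gene symbol from the 2202 microRNA genes of the count tables, and each library held at least 10 reads of all 6. The samples were heart tissue of female B6CASTF1/J mice, an F1 hybrid strain, at an age of 14 days, with no genetic change or treatment named in the labels. There were 2 libraries of RNA under 30 bases, labelled as biological replicates of 1 group, so conditions are not contrasted. For replicate 1 the labels mention 3 females and for replicate 2 they write female in the singular, with no count, and whether replicate 1 pooled hearts is not stated. Both cite the same donor entry, and a label text writes months where the age field has days. Differences therefore describe only these samples and may be technical, and the main p-values weigh them against counting error alone.

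The let-7 microRNAs are among the most conserved small RNAs of animals. A hairpin is cut from a longer primary transcript, the loop is removed, and the arm that is kept guides the silencing complex to messenger RNAs, mainly through the seed at its bases 2 to 8. Let-7 levels are known to be low in early embryos, where the RNA-binding proteins LIN28A and LIN28B block the processing of let-7 precursors, and to be high in differentiated tissues, the heart included. Known targets include Hmga2, Lin28b and members of the Ras family. Neither LIN28 nor any target was measured here.

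The mature 5p sequences are shown because the members differ in only a few bases, and those bases decide which locus a read can be given to. They are RefSeq entries on GRCm38.p6, written 5′ to 3′ with the seed in capitals, and let-7a-5p, which comes from duplicated loci, is given for comparison.
let-7a-5p (duplicated): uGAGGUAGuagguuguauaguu
Mirlet7i (let-7i-5p): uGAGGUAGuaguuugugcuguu
Mirlet7g (let-7g-5p): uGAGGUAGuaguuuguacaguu
Mirlet7d (let-7d-5p): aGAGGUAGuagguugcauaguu
Mirlet7b (let-7b-5p): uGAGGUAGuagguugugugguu
Mirlet7e (let-7e-5p): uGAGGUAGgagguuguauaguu
Mir98 (miR-98-5p): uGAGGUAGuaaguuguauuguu
All 6 are 22 bases long, carry the same seed, and have the same letter at 14 of 22 positions. The seed occurs in 13 of 1738 RefSeq mature entries (0.748%), none of which is listed under Mirlet7a-2. Outside the let-7 list and let-7k, the only other gene with it was Mir1961, which had 0 reads in both libraries.

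The members differ from let-7a-5p outside the seed. Counted from 1 at the 5′ end, with the base of let-7a-5p first, let-7e-5p has U9G alone. Let-7d-5p has U1A and U16C, let-7g-5p has G12U and U18C, and miR-98-5p has G11A and A19U. Let-7i-5p is the most distant, with G12U, A17G, U18C and A19U. Let-7b-5p has A17G and A19G, but against let-7c-5p, another duplicated form, it has A17G alone. Thus let-7b-5p and let-7e-5p lie 1 substitution from a duplicated form, and the other members lie 2 or 4 away.

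The members were chosen as let-7 forms from 1 locus, so a single copy in the annotation follows from that choice. Sequence outside annotated transcripts was not searched for further copies. Each of the 6 mature sequences occurred in 1 of the 2202 GENCODE M21 hairpins, whereas let-7a-5p, let-7c-5p and let-7f-5p each occurred in 2. Across all annotated transcripts the mature sequence was found elsewhere only in a host transcript of the same locus. The longest run of a mature sequence that recurred in another hairpin, overlapping genes left out, was 17 bases for Mirlet7g and 10 bases for Mir98. It was 16 bases for Mirlet7b, Mirlet7e and Mirlet7i and 14 bases for Mirlet7d. Reads mapping to several places were counted for no gene and made up 41.1% of replicate 1 and 39.9% of replicate 2. How many of them were let-7 reads was not analysed here.

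The precursors separate the members in another way, in the loop next to the 3p arm, where zinc knuckles of LIN28 are known to bind GGAG or a similar run. The RefSeq hairpins are shown with this run in capitals.
Mirlet7i: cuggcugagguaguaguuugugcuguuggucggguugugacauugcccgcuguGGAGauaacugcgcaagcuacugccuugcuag
Mirlet7g: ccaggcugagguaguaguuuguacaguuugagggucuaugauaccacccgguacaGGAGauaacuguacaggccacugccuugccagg
Mirlet7d: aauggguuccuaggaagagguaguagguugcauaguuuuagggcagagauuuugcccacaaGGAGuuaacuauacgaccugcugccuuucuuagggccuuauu
Mirlet7e: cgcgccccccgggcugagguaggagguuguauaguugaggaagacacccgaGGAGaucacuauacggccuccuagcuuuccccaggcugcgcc
Mirlet7b: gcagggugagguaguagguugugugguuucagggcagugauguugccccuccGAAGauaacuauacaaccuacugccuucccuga
Mir98: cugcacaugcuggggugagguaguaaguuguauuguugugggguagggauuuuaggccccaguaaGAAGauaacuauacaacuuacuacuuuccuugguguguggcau
The letters GGAG stood between the arms of 4 of the 6 hairpins, while Mirlet7b and Mir98 have GAAG at that place. In each hairpin the run ends 3 or 4 bases before the 3p arm, and Mirlet7e has a further GAAG earlier in its loop. The members' loops are 23 to 36 bases long. Of 61 RefSeq loops of that length, the members' own among them, 24.6% hold GGAG and 18.0% hold GAAG. The members supply 4 of the 15 loops with GGAG and 3 of the 11 with GAAG. Among duplicated let-7 genes, Mirlet7a-1, Mirlet7c-1, Mirlet7f-1 and Mirlet7f-2 also hold GGAG in the loop, and Mirlet7c-2 does not. Mirlet7a-2 was not among the loops searched. The letters GAU, which resemble the core of the site of LIN28's cold shock domain, lie in the loops of all 6 members. They lie in 29.5% of loops of that length, where the members supply 6 of 18. Mirlet7a-1, Mirlet7f-1 and Mirlet7f-2 hold GAU too, and Mirlet7c-1 and Mirlet7c-2 do not. Only the RNA strand was searched, and the 3 motifs can overlap. In the loops of Mirlet7i and Mirlet7e the only GAU begins with the last base of GGAG. A match describes letters and is not a binding site.

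The 6 genes lie on 6 chromosomes of mm10, and 4 of them lie beside another microRNA gene. Mirlet7i (ENSMUSG00000065406.3, chr10:122985640-122985724, minus strand) overlaps an exon of the transcribed pseudogene D630033A02Rik. Mirlet7g (ENSMUSG00000065440.1, chr9:106178840-106178927, plus strand) lies in an intron of Wdr82, a subunit of a histone methyltransferase complex. Neither has another microRNA gene on its strand within 10000 bases. Mirlet7d (ENSMUSG00000065453.1, chr13:48536012-48536114, minus strand) overlaps an exon of the non-coding 6720427I07Rik, 1714 bases from Mirlet7f-1 and 2064 bases from Mirlet7a-1. Mirlet7b (ENSMUSG00000065564.1, chr15:85707319-85707403, plus strand) overlaps an exon of the non-coding Lncppara, 621 bases from Mirlet7c-2. Mirlet7e (ENSMUSG00000105758.1, chr17:17830352-17830444, plus strand) lies in an intron of Spaca6, a gene needed for sperm and egg fusion, 94 bases from Mir99b and 367 bases from Mir125a. Mir98 (ENSMUSG00000065536.2, chrX:151913214-151913321, plus strand) lies in an intron of the ubiquitin ligase gene Huwe1, 785 bases from Mirlet7f-2.

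Replicate 1 held 12701590 reads and replicate 2 held 7126319, of which 5237062 and 3026501 fell on a microRNA gene in its sense direction (own strand). Levels are counts scaled to 1000000 of these reads (CPM), and a count of 0 would allow up to 0.573 and 0.991 CPM. The heart label was set against marker microRNAs. Of 7 cardiomyocyte genes, 5 reached 10 reads in each library and none was at 0 in both. Their summed share was 0.519% in replicate 1 and 0.345% in replicate 2. For 4 of them, copies of miR-1 and miR-133a, reads that also map to a near-identical copy are counted for no gene. The endothelial Mir126a took 4.29% and 6.40%, the smooth muscle pair 3.03% and 3.39%, and 7 epithelial genes 0.0686% and 0.0383%. The 3 genes listed as erythroid, for red blood cells, took 0.0995% and 0.738%, but they did not move together. Mir451a had 1223 reads in replicate 1 and 19348 in replicate 2, and Mir144 had 541 and 1753. Mir486 went the other way, with 3446 and 1242 reads. The liver Mir122 and the skeletal muscle Mir206 were each below 0.01% in both libraries.

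The 6 genes held 30.8% of all counted microRNA reads in replicate 1 (exact 95% interval 30.8 to 30.9) and 32.7% in replicate 2 (32.6 to 32.8), a mean of 31.8% ± 1.32 (SD, n = 2). Mirlet7i led with 568764 reads in replicate 1 and 393067 in replicate 2, or 108604 and 129875 CPM (119239 ± 15041, SD, n = 2). It was the second most counted microRNA gene in each library. Mirlet7g had 421769 and 261658 reads, or 80535 and 86456 CPM (83496 ± 4186, SD, n = 2), and was the third in each. It lay below Mirlet7i in both libraries, by 1.35-fold in replicate 1 and 1.5-fold in replicate 2.

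Mirlet7d and Mirlet7b followed at closer levels. Mirlet7d had 284521 and 177548 reads, or 54328 and 58664 CPM (56496 ± 3066, SD, n = 2). Mirlet7b had 260984 and 120155 reads, or 49834 and 39701 CPM (44768 ± 7165, SD, n = 2). Their libraries did not overlap, but in replicate 1 Mirlet7d was only 1.09-fold above Mirlet7b, against 1.48-fold in replicate 2.

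Mirlet7e and Mir98 were the low members. Mirlet7e had 67222 and 30512 reads, or 12836 and 10082 CPM (11459 ± 1948, SD, n = 2), which was 3.88-fold and 3.94-fold below Mirlet7b. Mir98 had 11214 and 6656 reads, or 2141 and 2199 CPM (2170 ± 41.0, SD, n = 2), with exact intervals of 2102 to 2181 and 2147 to 2253 CPM that overlap. From the highest to the lowest member the mean level thus spanned from 119239 to 2170 CPM.

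**Figure D1:**
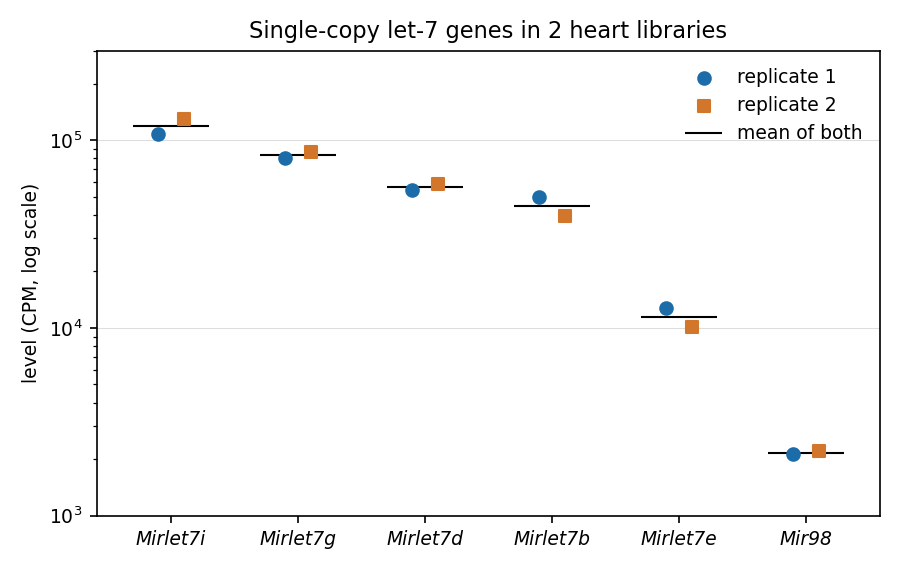
Level of each of the 6 genes (CPM, log axis) in replicate 1 (blue circles) and replicate 2 (orange squares), with the mean of both as a black line. The order from Mirlet7i at 119239 CPM to Mir98 at 2170 CPM was the same in both libraries, and no gene's 2 values overlap those of its neighbour.

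The order Mirlet7i, Mirlet7g, Mirlet7d, Mirlet7b, Mirlet7e and Mir98 was the same in both libraries, and for each of the 5 neighbouring pairs both libraries of the higher gene lay above both of the lower. All mature 5p forms have 22 bases, so CPM sets them side by side at equal mature length. Whether library preparation captured and amplified each sequence equally was not tested, so the order is one of counted reads. The counts join both arms of a hairpin, and the share of the 5p arm was not analysed here. When CPM was divided by the length of the annotated gene, 85 to 108 bases, 4 of the 5 neighbouring pairs kept their order in both libraries. The exception was Mirlet7d and Mirlet7b, where Mirlet7b was higher in replicate 1.

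Within the summed reads of the 6 genes, Mirlet7i, Mirlet7g and Mirlet7d made up 79.0% in replicate 1 and 84.1% in replicate 2. The share of Mirlet7i was 35.2% and 39.7%, and that of Mirlet7b was 16.2% and 12.1%. Mirlet7g kept nearly the same share at 26.1% and 26.4%, as did Mirlet7d at 17.6% and 17.9%. Mirlet7e made up 4.16% and 3.08%, and Mir98 made up 0.695% and 0.673%. The shift between libraries was therefore mostly between Mirlet7i on 1 side and Mirlet7b and Mirlet7e on the other.

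The other 6 annotated let-7 genes, from the duplicated let-7a, let-7c and let-7f loci, held 2.77% of the family's counted reads in replicate 1 and 2.32% in replicate 2, and the single-copy genes held 97.2% and 97.7%. Mirlet7f-2 was the highest of these 6, with 6279 and 4801 CPM, above Mir98 in both libraries. The remaining 5 lay between 177 and 1164 CPM in either library. Since reads shared by several loci were counted for none, these shares hold for uniquely mapped reads and not for the tissue. Let-7j and let-7k, listed in the tables as Mir7j and Mir7k, had 98 and 84 reads and 2 and 0 reads.

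Between the 2 libraries, Mirlet7b and Mirlet7e were higher in replicate 1, and Mirlet7i, Mirlet7g, Mirlet7d and Mir98 were lower. Each gene was tested by an exact two-sided binomial test on its reads, with library sizes scaled by TMM and Benjamini-Hochberg adjustment over 430 genes. This test compares the 2 libraries and not conditions, and it rests on counting error alone. Differences are given as log2 of replicate 1 over replicate 2 with counting intervals of 95%. All 6 were called, against 55.3% of all genes tested. The test calls smaller differences where reads are more. With only genes of at least 100 reads in sum tested, it called 76.8% of them. Each member had at least 6656 reads in either library, so 6 of 6 cannot be read as a trait of the members. The 2 higher members stand beside 27.9% of all genes called higher, and the 4 lower ones beside 27.4% called lower.

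The largest difference was that of Mirlet7i, with a log2 difference of -0.39 (-0.40 to -0.39), or 1.31-fold lower in replicate 1. Mirlet7d was lower by 1.19-fold (log2 -0.25, -0.25 to -0.24) and Mirlet7g by 1.18-fold (log2 -0.24, -0.24 to -0.23). Mir98 was lower by 1.13-fold (log2 -0.17, -0.22 to -0.13), with an adjusted p of 5.4e-14 in the exact binomial test. Mirlet7b was higher by 1.14-fold (log2 0.19, 0.18 to 0.20). Mirlet7e was higher by 1.16-fold (log2 0.21, 0.19 to 0.23), with an adjusted p of 2.0e-103 in the same exact test. The adjusted p of the other 4 members was smaller still.

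Apart from that of Mirlet7i, which was near the median, these differences were small beside those of other genes. Over the 226 genes averaging 100 reads or more, the median absolute log2 difference was 0.40, or 1.32-fold, and the 6 members had a median of 0.23, or 1.17-fold. Mirlet7i exceeded 48.2% of those genes, and the other members exceeded between 19.9% (Mir98) and 27.4% (Mirlet7d). The members' median signed difference was -0.20 and that of all 430 genes was -0.05. The binomial test allows for no spread beyond counting. edgeR's exact test with a common dispersion, a biological coefficient of variation of 0.424, called 0 of 6, with unadjusted p between 0.66 and 0.85, beside 0.93% of all genes. That dispersion was estimated from the same 2 libraries, so their own differences set it and few calls follow from its construction. At a fixed coefficient of 0.1 it also called 0 of 6, the smallest unadjusted p being 0.055 for Mirlet7i, beside 28.6% of all genes.

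**Figure D2:**
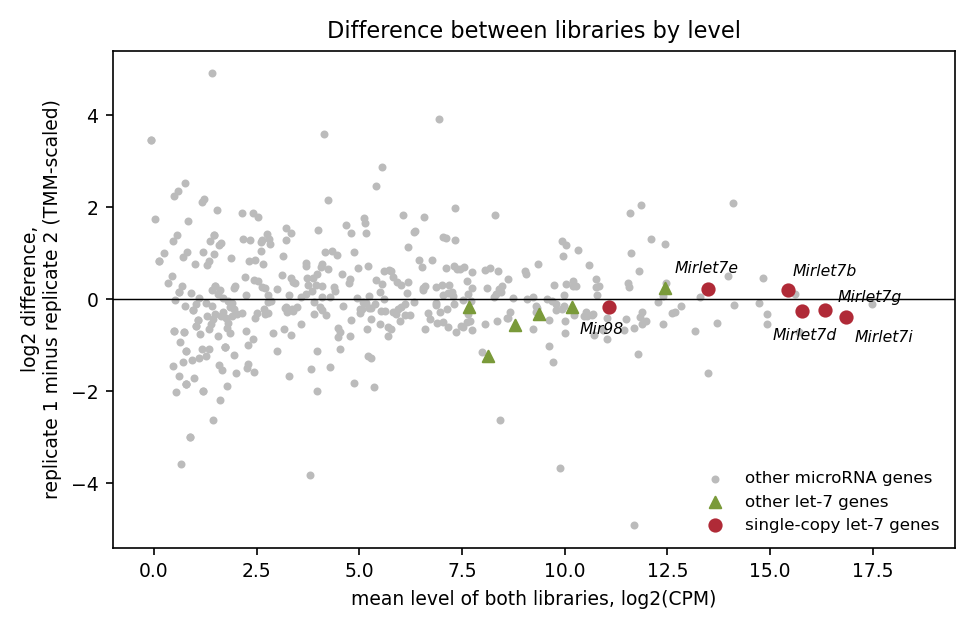
Log2 difference between libraries after TMM scaling (vertical axis) against mean level in log2(CPM) (horizontal axis) for 430 microRNA genes, with the 6 single-copy let-7 genes as red circles, the other let-7 genes as green triangles and the rest in grey. The members lie among the most abundant genes and between -0.39 and 0.21, close to 0 beside many less abundant genes.

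The scaling moved every difference. TMM scaling set log2 differences 0.13 below those from total counts, and the median of all genes was 0.08 with total counts. With total counts, which called 55.8% of all genes, 5 of 6 members were called, as Mir98 lost its call (log2 -0.04, adjusted p = 0.14 in the exact binomial test). With DESeq2 size factors, which called 55.3% of all genes, 6 of 6 were called. The direction of each member was the same under all 3 scalings. The erythroid, endothelial and other marker shares given above also differed between the libraries, and their part in the let-7 differences was not tested. In tissue libraries, fewer cells of a type and less RNA per cell cannot be told apart.

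Ratios between members do not depend on the scaling. The ratio of Mirlet7g to Mirlet7d was nearly identical in the 2 libraries, at log2 0.57 in replicate 1 and 0.56 in replicate 2. That of Mirlet7b to Mirlet7e was also close, at log2 1.96 and 1.98. Over the 15 pairs of members the change between libraries ran from 0.01 to 0.61 on the log2 scale, with the largest for Mirlet7i to Mirlet7e, at 3.08 and 3.69. The 8 pairs that set Mirlet7b or Mirlet7e against another member changed by 0.37 to 0.61, and the 7 other pairs changed by at most 0.22. This grouping was noticed after the values were seen and has no test. Mirlet7b and Mirlet7e are also the members whose mature sequence, shown above, lies 1 substitution from a duplicated form. Whether reads of duplicated forms reached their counts was not tested.

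**Figure D3:**
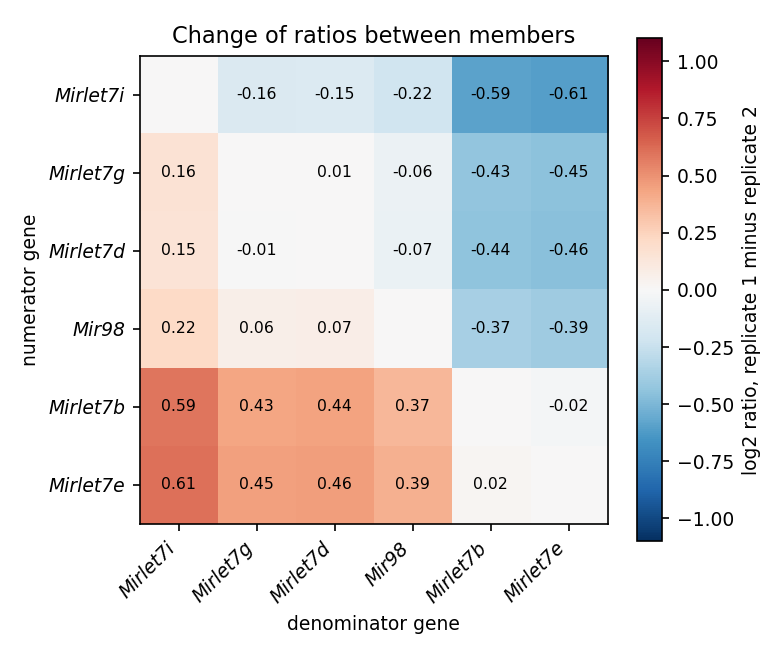
Change of the log2 ratio of a numerator gene (rows) to a denominator gene (columns), replicate 1 minus replicate 2, for all pairs of the 6 genes, with red for a higher and blue for a lower ratio in replicate 1. The pairs of Mirlet7b and Mirlet7e with the other members show the largest changes, up to 0.61.

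Genes of a shared cluster are made from the same primary transcript where they are transcribed together, so the members were set beside their annotated neighbours. In the Mirlet7d cluster all 3 values lay below 0, and differences between the 3 were not tested. Mirlet7d was at log2 -0.25, Mirlet7a-1 at -0.32 (-0.40 to -0.24) and Mirlet7f-1 at -0.16 (-0.30 to -0.02), the last not called (adjusted p = 0.053, exact binomial test). Mirlet7d had 268 and 285 times the reads of Mirlet7f-1 and 87.3 and 82.8 times those of Mirlet7a-1. The mature forms of both neighbours also come from a further locus, and the part of uncounted multimapping reads in these ratios was not tested. In the Mirlet7b cluster, Mirlet7c-2 was lower in replicate 1 at log2 -0.17 (-0.23 to -0.11), opposite to Mirlet7b. The ratio of Mirlet7b to Mirlet7c-2 was 43.8-fold in replicate 1 and 34.1-fold in replicate 2. On the X chromosome, Mirlet7f-2 was higher at log2 0.25 (0.22 to 0.28), opposite to Mir98. Mir98 had 0.341 and 0.458 times the reads of Mirlet7f-2, the only duplicated neighbour that exceeded its single-copy partner. The mature forms of Mirlet7c-2 and Mirlet7f-2 likewise come from 2 loci each, so their counts leave out reads that map to both. What part these uncounted reads have in the ratios and opposite directions was not tested.

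The cluster of Mirlet7e held the widest divergence. Its 3 genes lie close together on the plus strand, and none of the neighbours belongs to the let-7 family. Mir99b had 32185 reads in replicate 1 and 51249 in replicate 2, or 6146 and 16933 CPM, and was lower in replicate 1 at log2 -1.60 (-1.62 to -1.58). Mir125a, related to the worm's lin-4, had 42002 and 9597 reads, or 8020 and 3171 CPM, and was higher at log2 1.20 (1.17 to 1.24). Mirlet7e stood between them at log2 0.21. The ratio of Mirlet7e to Mir99b was 2.09-fold in replicate 1 and 0.595-fold in replicate 2, so that the order of these genes reversed. The ratio of Mirlet7e to Mir125a was 1.60-fold and 3.18-fold, and that of Mir99b to Mir125a was 0.766-fold and 5.34-fold.

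**Figure D4:**
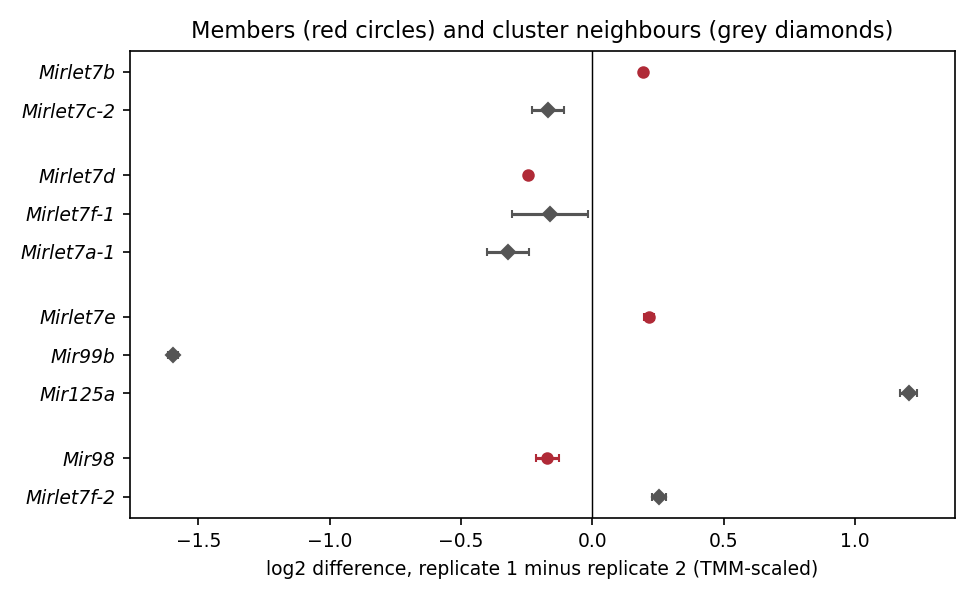
Log2 difference, replicate 1 minus replicate 2 after TMM scaling, for Mirlet7b, Mirlet7d, Mirlet7e and Mir98 (red circles) and their neighbours within 10000 bases on the same strand (grey diamonds), grouped by cluster; bars are exact 95% counting intervals. Mir99b at -1.60 and Mir125a at 1.20 lie on opposite sides of Mirlet7e at 0.21.

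Of the other 6 let-7 genes, 1 was called higher in replicate 1 (Mirlet7f-2), 4 were called lower and 1 was not called, with a median log2 difference of -0.24. Mirlet7a-2 differed most, at log2 -1.23 (-1.36 to -1.11), from 929 and 1150 reads. Mirlet7c-1 was lower at log2 -0.56 (-0.65 to -0.46), from 1992 and 1543 reads. No single-copy member differed as widely as these, but each member had more reads, at least 6656 in either library. The let-7a and let-7c mature forms come from 2 loci each, so the counts of Mirlet7a-2 and Mirlet7c-1 leave out shared reads. The part of depth and of uncounted reads in this contrast was not tested.

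The strand of the counted reads decided whether Mirlet7e was seen at all. The annotation has a microRNA gene on the opposite strand, Gm25927, that spans Mirlet7e. Ignoring strand, the deposited counts list both genes at 0, while by strand all 67222 and 30512 reads fall to Mirlet7e and 0 to Gm25927. Among the 335 genes with at least 10 own-strand reads in both libraries, 26 were at 0 without strand. For Mirlet7d, Mirlet7g, Mirlet7i and Mir98 the unstranded and own-strand counts were equal, and for Mirlet7b they differed by 17 and 5 reads.

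Outside the let-7 family, the genes nearest to each member in log2(CPM + 1) over the 2 libraries were found by Euclidean distance. They were Mir324 for Mir98 (distance 0.18), Mir23b for Mirlet7b (0.23), Mir191 for Mirlet7e (0.27) and Mir126a for Mirlet7d (0.36). Mirlet7g (Mir126a, 1.01) and Mirlet7i (Mir378a, 0.92) had no close neighbour. With 2 libraries, such a distance describes level alone.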

How the data were processed

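The deposited tables hold raw read counts per microRNA gene and library, made by the authors on mm10 with annotation M21, per the deposited readme. For adapter trimming, alignment and counting, the tools were not given in the sources used here. Of 3 count columns without a header, the values show the second to hold own-strand reads, which were used. The 4 summary lines that name no gene stayed out of library sizes. Of all reads 13.4% and 13.3% were unmapped, and 4.33% and 4.30% lay outside microRNA genes.

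CPM used all own-strand gene reads. The binomial test took genes with at least 10 reads in sum, 0.5 reads added for log2 differences, and a threshold of 0.05. It was tested on data simulated with counting error alone, where it called 1.67% of unchanged genes and 87.9% of those changed 4-fold. Since the test assumes that same error, the simulation cannot show how it behaves with spread beyond counting. Without molecular identifiers, reads can repeat the same molecule, so intervals cover counting error only. Tools were R 4.3.3, edgeR 4.0.16, DESeq2 1.42.0, Python 3.11.15, matplotlib 3.10.9, scipy 1.17.1, numpy 2.4.6 and pandas 2.3.3. edgeR's quasi-likelihood test could not be fitted with 1 library on each side. Sequences came from RefSeq on GRCm38.p6, where all 6 members matched, at the same hairpin positions as in GENCODE M21.

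The members, lists and tests were chosen with earlier results of these data known. Named were the 6 members, microRNA genes within 10000 bases on the same strand, the other annotated let-7 genes of a list of 14 symbols, and the nearest gene outside the family for each member. Mir7j, Mir7k, Mir1961 and Gm25927 were named after their values were seen. Alternatives were unstranded reads, other denominators, scalings, filters and tests, 10 reads added, and each replicate left out. Counts per gene length, and Mir7j and Mir7k added to the family, were chosen after seeing the data.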

Additional observations from a re-analysis of the deposited data

Results flagged for a closer look

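Mirlet7b had 17 reads in replicate 1 and 5 in replicate 2 on the strand opposite to the gene, in a column that the comparisons did not use. No annotated microRNA gene overlaps Mirlet7b on that strand. These counts exceed the 3 reads that a count of 0 allows, while the other 5 members had 0 opposite-strand reads in both libraries. They stand beside 260984 and 120155 reads on the own strand.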

How the results depend on the processing

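The summed level of the 6 genes, 317628 CPM, moved with the reads it was set against. It was 419107 CPM with unstranded reads, where fewer reads of other genes are counted and Mirlet7e is listed at 0. It was 132986 per 1000000 with all reads as denominator and 389265 with Mir378a left out of the denominator. With these 3 settings 5 single genes moved in the direction of the sum, and Mirlet7e did so in the last 2. Leaving the erythroid genes out of the denominator moved neither the sum nor a member by more than 1 SD, and single replicates gave sums of 308279 and 326977 CPM. The members' share of family reads, 97.5%, was 97.42% with unstranded reads and 97.45% with Mir7j and Mir7k added to the family. Single replicates gave 97.2% and 97.7%. With 2 libraries, leaving 1 out always stays within 1 SD of the mean, so those runs cannot show stability. Multimapping reads entered none of these runs. Of 6 members called between libraries, 0 were called by edgeR's exact test, with the dispersion estimated from these same libraries, which by construction leaves few calls (4 of 430 genes called, 24 at an unadjusted p under 0.05) and with the fixed one (123 called, 170 unadjusted), against 238 in the binomial test. Mir98 also lost its call with total counts (log2 -0.04) and with no filter (log2 -0.04). The direction of each member held in every alternative that gave a value. Unstranded reads gave none for Mirlet7e. The log2 ratio of Mirlet7e to Mir99b was 1.06 without replicate 2 and reversed to -0.75 without replicate 1; the cause was not tested. No paired analysis was possible because there was 1 group. Depth did not limit the members, the lowest of which had 6656 reads.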
